A study of Mus musculus with 3 samples.

Results

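Slpi and 5 serpin genes, Serpina3f, Serpina3g, Serpinb1a, Serpinb6b and Serpinb9, all encode inhibitors of proteases or members of an inhibitor family. They were picked by symbol, with their values in these libraries already known, and make up 6 of the 33605 gene symbols in the tables. Their changes are therefore given as descriptions and carry no test. RNA was sequenced from splenic B cells of C57BL/6 mice that were negative for CD43, a surface protein of activated B cells and of most other leukocytes. All cultures received LPS, a bacterial product that activates B cells, and IL4, a T cell cytokine, for 3 days. The libraries were 1 with DMSO as the vehicle, 1 with JQ1+ at 80 nM and 1 with Flavopiridol at 30 nM, the drugs being present for the same 3 days. JQ1 displaces BET bromodomain proteins from acetylated chromatin, and flavopiridol inhibits cyclin-dependent kinases, Cdk9 of transcription elongation among them. The sources used here do not give mouse age, mouse number or whether cultures shared mice, and the culture label of both drug samples repeats the DMSO wording.

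With 1 library per treatment no difference could be checked in replicates, so no p-values are printed. Count sums were between 50184508 and 59786847 reads. Levels are in RPKM, reads per kilobase of gene scaled to library size, so levels of different genes can be compared. A change is log2((RPKM + 1)/(RPKM + 1)), and the words rose and fell are kept for a size of at least 1, a 2-fold change. The rule was applied to 14790 genes whose mean reached 1 RPKM. Beside ratios of plain RPKM stand 95% intervals for counting error alone, which leave out variation between cultures. In bulk RNA, fewer cells making a transcript and less transcript per cell cannot be told apart. The B cell markers Cd79b, a chain of the B cell receptor complex, and Pax5, the B lineage factor, were present in every library, at 1545 to 2127 and 137 to 168 RPKM.

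Serpins are large single-domain proteins that trap their target protease by offering it a reactive loop, which is cut and locks the enzyme in an inactive complex. Clade A serpins are mostly secreted, whereas clade B serpins stay inside the cell and guard it against proteases that leak from granules or lysosomes. Slpi, the secretory leukocyte protease inhibitor, is unrelated to them in structure. It is a small protein of WAP domains that blocks neutrophil elastase and cathepsin G and is known to dampen responses to LPS. Serpinb9 is known as the inhibitor of granzyme B, Serpinb1a as an inhibitor of neutrophil serine proteases, Serpinb6b as a mouse inhibitor of granzyme A, and Serpina3g, also called Spi2A, as an inhibitor of lysosomal cysteine cathepsins. Serpina3f is a close relative in the expanded mouse Serpina3 family.

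The starts of 5 of the 6 genes were matched by symbol in a RefSeq promoter table of build GRCm38.p6, which is not the mm9 build named for the deposited files, so these positions were not joined to the counts. Stretches upstream of the start are shown where 1 of 5 motifs was found, with the match in capitals. Serpina3f and Serpina3g, neighbours whose values with JQ1+ were unlike, can be compared there over related sequence.
Serpina3f, chr12:104214383-104214471, plus strand, STAT motif: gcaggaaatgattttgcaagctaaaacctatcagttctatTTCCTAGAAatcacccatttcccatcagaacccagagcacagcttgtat
Serpina3g, chr12:104236074-104236146, plus strand, STAT motif: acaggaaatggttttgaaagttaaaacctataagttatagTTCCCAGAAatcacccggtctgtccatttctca
Serpinb9, chr13:33004455-33004540, plus strand, interferon response core: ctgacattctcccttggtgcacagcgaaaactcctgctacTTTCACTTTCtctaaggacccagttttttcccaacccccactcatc
Slpi, chr2:164356608-164356693, minus strand, E-box: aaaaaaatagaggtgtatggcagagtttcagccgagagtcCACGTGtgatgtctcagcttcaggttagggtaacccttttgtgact

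Motifs were searched on both strands in windows from 250 bases before to 50 bases after each start. The STAT motif TTCNNNGAA lay 121 bases before the first of the pair of Serpina3f starts, the same site being 210 bases before the second. It lay 33 bases before the Serpina3g start, and 8.30% of all 32851 windows held it. For the Serpina3g start and the second Serpina3f start, the end of the window was in no GENCODE M21 transcript of the gene. Those starts are thus less certain. The windows of these neighbours could be aligned over 202 bases, of which 83.7% were identical. The interferon response core, GAAA and GAAA separated by NN, found as its other-strand form 46 bases before the Serpinb9 start, was in 3.44% of windows. The E-box CACGTG lay 146 bases before the Slpi start and was in 7.15% of windows. The STAT6-type motif, TTC and GAA separated by NNNN (6.95% of windows), and the NF-kB motif, GGGA and TTCC separated by NN (1.47%), were in none of the 6 windows of these genes, and the Serpinb6b window held no match to any motif. These matches describe letters in a window and not bound sites.

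In DMSO the levels covered a 11.8-fold range, from 14.6 to 172 RPKM with a median of 54.6. Serpinb6b was the highest at 172 RPKM (95% interval 166 to 179) and Slpi next at 168 (160 to 177), and these intervals overlapped. Serpina3g followed at 68.8 RPKM and Serpinb9 at 40.4. Serpina3f at 15.4 and Serpinb1a at 14.6 RPKM had overlapping intervals at the bottom. Slpi and Serpinb6b were thus above 91.4% and 91.6% of the genes tested, respectively.

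The order was different in the drug libraries. With JQ1+ it ran Serpinb6b, Serpina3g, Serpinb1a, Serpinb9, Serpina3f and last Slpi, with overlapping intervals only for the final pair. With flavopiridol Serpinb6b (50.7 RPKM) and Serpina3g (45.5) overlapped at the top, and the lower intervals of Slpi, Serpina3f and Serpinb1a overlapped each with the next. Slpi went from the second place in DMSO to the sixth with JQ1+ and the fourth with flavopiridol. The summed level of all 6 genes was 479 RPKM in DMSO, 192 with JQ1+ and 143 with flavopiridol, and that of the 5 serpins alone was 311, 189 and 132.

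**Figure D1:**
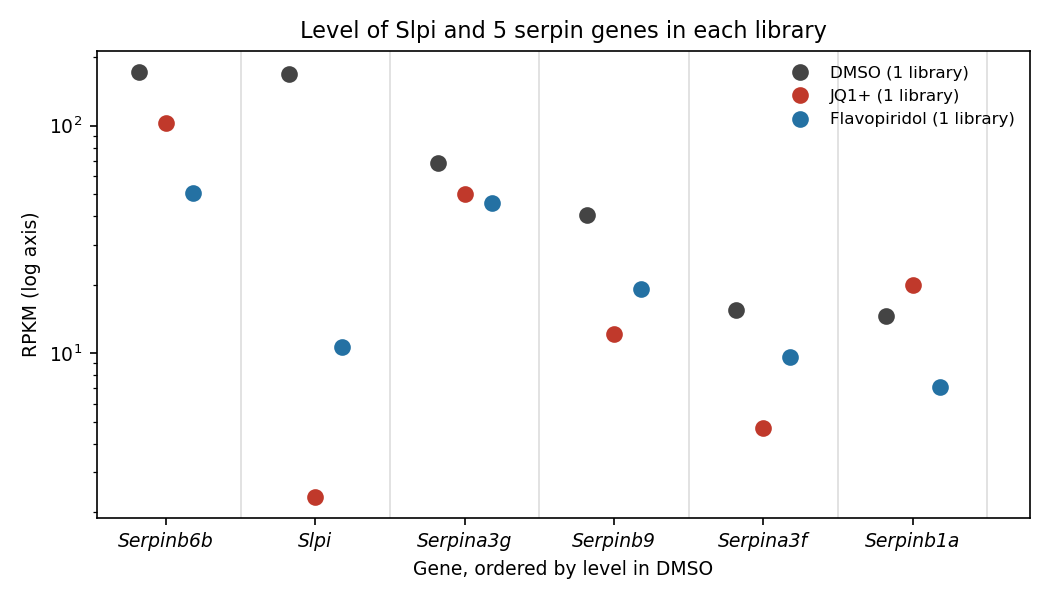
Level of each gene in RPKM (log axis) in the DMSO, JQ1+ and flavopiridol libraries, 1 point per library, genes ordered by their DMSO level. Slpi drops from 168 to 2.34 RPKM with JQ1+, while Serpinb1a is the one gene whose highest point, 19.9 RPKM, is in the JQ1+ library.

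Slpi had the largest change of the group with either drug. It stood at 168 RPKM in DMSO (4176 reads), 2.34 in JQ1+ (52 reads) and 10.7 in flavopiridol (216 reads). The DMSO library was high and both drug libraries low, with JQ1+ the lower. Slpi fell 71.9-fold with JQ1+ (interval 45.6 to 121), a log2 change of -5.66, which left 1.39% of its DMSO level. It fell 15.8-fold with flavopiridol (interval 12.5 to 20.1), a log2 change of -3.86. Of the 14790 genes tested only 3 had a lower log2 change with JQ1+, and only 3 had a lower one with flavopiridol. Between the drugs Slpi was 4.56-fold lower in JQ1+ (interval 2.71 to 8.06).

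The 3 genes whose pair of changes lay nearest to those of Slpi were the oligoadenylate synthetase gene Oas3, Lgals3bp, a secreted galectin-binding protein, and Usp18, which removes Isg15 from proteins. Likeness was the Euclidean distance in the log2 changes against DMSO over 3 libraries, among 8818 named genes whose mean reached 5 RPKM. The distances were 0.44, 0.52 and 0.82, and no gene lay within 0.25 of Slpi. None of the other 5 protease inhibitors came closer than 4.90. Slpi lay near the lowest end of the changes with both drugs, where genes are few, so its lack of near neighbours says little. Its place also depended on the pseudocount, the change with JQ1+ being -6.11 at 0.1 RPKM and -4.56 at 5 RPKM.

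Slpi lies on chromosome 2 among other genes of small secreted proteins. The seminal vesicle genes Svs4, Svs3a, Svs6 and Svs5 on one side were between 0 and 0.164 RPKM in the 3 libraries, and on the other side Matn4 and Rbpjl were at most 0.254. Further along, Sdc4, a cell surface proteoglycan, was at 295 RPKM in DMSO, 269 in JQ1+ and 195 in flavopiridol. Sys1, the next gene, was at 32.7, 29.0 and 25.1 RPKM in the same order. These expressed neighbours thus stayed within 2-fold of DMSO with both drugs (log2 changes -0.13 and -0.59 for Sdc4, -0.17 and -0.37 for Sys1).

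The paired genes Serpina3f and Serpina3g sit next to each other on chromosome 12, and no other gene within 3 places on either side passed 1 RPKM. Serpina3f was at 15.4 RPKM in DMSO, 4.70 in JQ1+ and 9.61 in flavopiridol. It fell 3.28-fold with JQ1+ (interval 2.52 to 4.32; log2 change -1.53) and was 1.60-fold lower with flavopiridol (interval 1.30 to 1.99), inside the 2-fold limit. Serpina3g was at 68.8 RPKM in DMSO, 49.9 in JQ1+ and 45.5 in flavopiridol. Its values differed little between the drugs, with log2 changes of -0.46 and -0.59 against DMSO, neither past 2-fold. Serpina3f was 22.4% of the Serpina3g level in DMSO and 21.1% with flavopiridol but 9.41% with JQ1+.

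Sequence shared within the family limits how far reads of these neighbours can be separated. Of all 50-base words in the GENCODE M21 transcripts of Serpina3f, 10.6% occurred in transcripts of other genes, most often of Serpina3g (6.03%). For Serpina3g the share was 15.5%, most often with Serpina3h (8.89%), annotated as a pseudogene in the deposited tables. Serpina3h stood at 0.936, 0.413 and 0.762 RPKM in DMSO, JQ1+ and flavopiridol. The shares were 2.92% for Serpinb6b, 2.81% for Serpinb1a, 0.378% for Serpinb9 and 0 for Slpi. The sources used here do not say how reads with several matches were counted.

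The clade B genes Serpinb1a, Serpinb6b and Serpinb9 lie close together on chromosome 13, with Serpinb1c between the first pair. Each had its own pattern. Serpinb9 was at 40.4 RPKM in DMSO, 12.1 in JQ1+ and 19.2 in flavopiridol. Its DMSO library was the highest and its JQ1+ library the lowest. Serpinb9 fell 3.33-fold with JQ1+ (interval 2.92 to 3.82; log2 change -1.66) and 2.10-fold with flavopiridol (interval 1.88 to 2.37; log2 change -1.04). The flavopiridol value sat just past the 2-fold limit and was -0.91 with a pseudocount of 5 RPKM.

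Serpinb6b had the opposite order of drugs. It was at 172 RPKM in DMSO, 103 in JQ1+ and 50.7 in flavopiridol. With flavopiridol it fell 3.39-fold (interval 3.12 to 3.70; log2 change -1.74). With JQ1+ it was 1.68-fold lower (interval 1.58 to 1.79; log2 change -0.74), within the limit. Serpinb6b was 2.02 times as high in JQ1+ as in flavopiridol (interval 1.85 to 2.22), a log2 change of 1.003 that lay on the limit and was 0.95 with a pseudocount of 5 RPKM.

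Serpinb1a was the only one of the 6 with a JQ1+ level above DMSO. It was at 14.6 RPKM in DMSO, 19.9 in JQ1+ and 7.09 in flavopiridol. The ratio of JQ1+ to DMSO was 1.36 (interval 1.13 to 1.64), within 2-fold. With flavopiridol it was 2.06-fold lower in plain RPKM (interval 1.59 to 2.69), but its log2 change of -0.95 did not pass the rule with the pseudocount of 1. That change was -1.03 with a pseudocount of 0.1 RPKM and -1.07 after rescaling by the median of ratios, both past the limit. Between the drugs Serpinb1a was 2.80 times as high in JQ1+ (interval 2.18 to 3.63; log2 change 1.37).

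The neighbours of these clade B genes were mostly silent. Serpinb1c, the adjacent relative of Serpinb1a, was at 0.948 RPKM in DMSO, 1.35 in JQ1+ and 0.237 in flavopiridol, and shares 2.02% of the 50-base words of Serpinb1a. It had 27, 34 and 6 reads, and its mean was under 1 RPKM. Serpinb9b and Serpinb1b were at most 1.03 RPKM and Serpinb9c had no reads. Wrnip1, a DNA repair ATPase gene next to Serpinb1a, was at 64.2, 56.4 and 74.8 RPKM. Gmds, further out on that side, was at 39.1, 42.6 and 57.0 RPKM. Within this stretch, then, these flanking expressed genes stayed within 2-fold of DMSO while their serpin neighbours took 3 different courses.

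**Figure D2:**
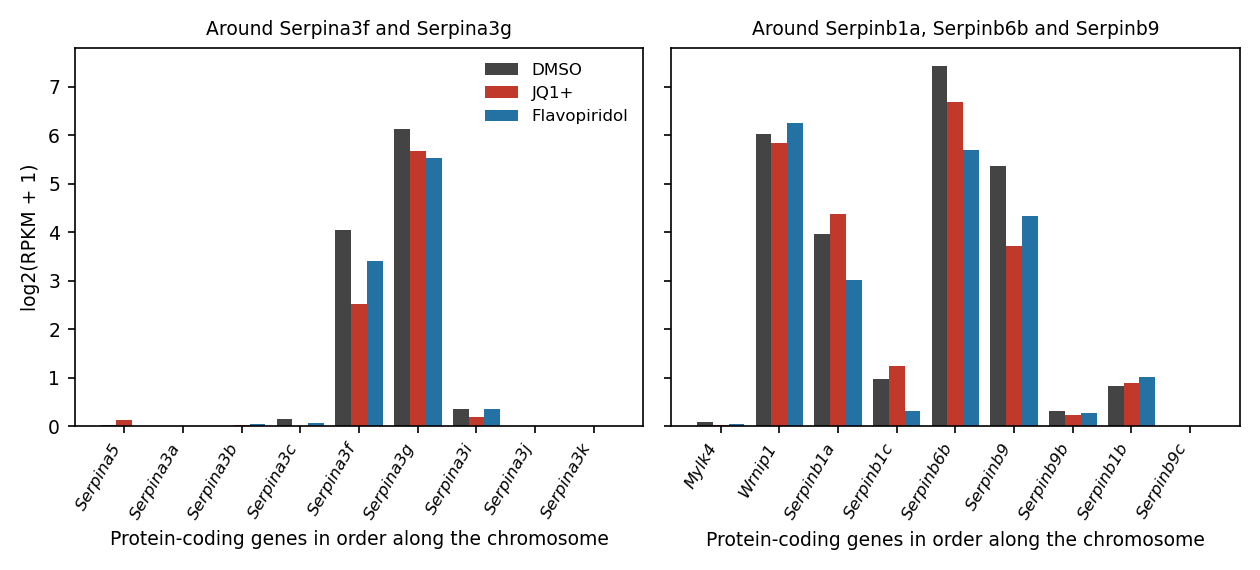
Levels as log2(RPKM + 1) of protein-coding genes in RefSeq order along chromosome 12 (left) and chromosome 13 (right), bars for the DMSO, JQ1+ and flavopiridol libraries. Serpina3f and Serpina3g stand alone among silent relatives, and Serpinb1a, Serpinb6b and Serpinb9 each have a different order of the 3 bars.

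Counted over the group, 3 of 6 genes fell with JQ1+ (Slpi, Serpina3f and Serpinb9) and none rose, where 5.29% of all genes tested fell and 1.98% rose. The median log2 change was -1.13, beside -0.08 for all genes. With flavopiridol 3 of 6 fell (Slpi, Serpinb6b and Serpinb9) and none rose, where 2.88% of all genes fell and 3.55% rose. The median was -0.99, beside 0.13 for all genes. The genes were chosen with these values known, so nothing is read from these counts. Both drugs were set against the same DMSO library, so the paired changes are not independent.

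Between the drugs, 2 of 6 were higher in JQ1+ (Serpinb1a and Serpinb6b) and 1 was lower (Slpi), where 2.06% of all genes were higher and 6.87% lower, 8.92% in all. The median was -0.25, beside -0.21 for all genes. Serpina3f was 2.05-fold lower in JQ1+ in plain RPKM (interval 1.53 to 2.77), with a log2 change of -0.90 inside the limit. For Serpinb9 the JQ1+ level was 1.58-fold below that with flavopiridol (interval 1.36 to 1.85), and the ratio for Serpina3g was 1.10 (interval 0.986 to 1.22). The compounds are not related in structure and their doses differed.

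**Figure D3:**
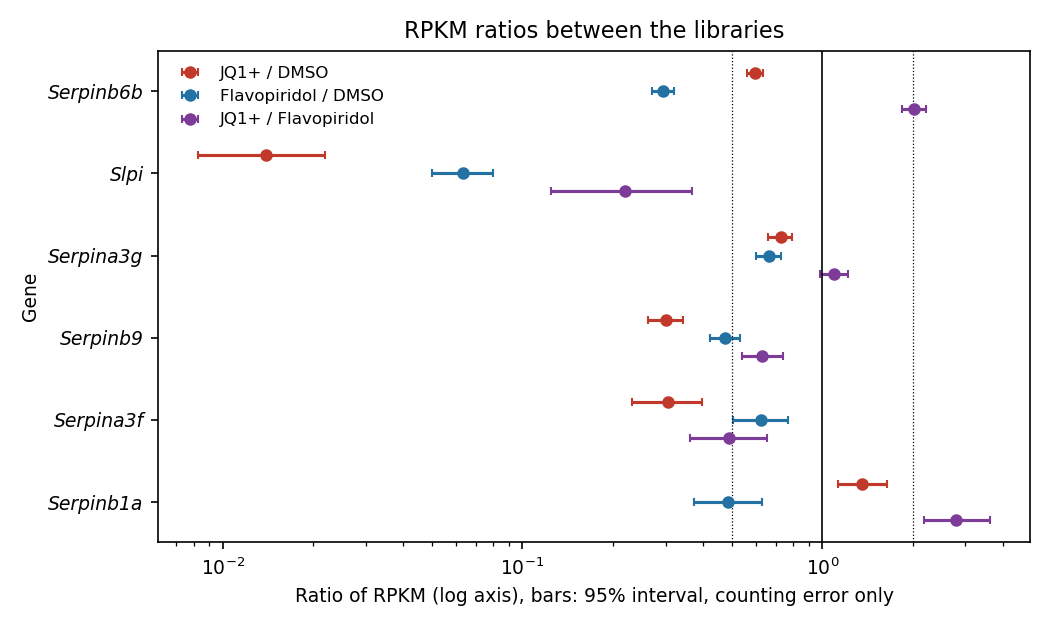
Ratio of RPKM between libraries (log axis) for JQ1+ over DMSO, flavopiridol over DMSO and JQ1+ over flavopiridol, with 95% intervals for counting error only and dotted lines at 2-fold. The 3 ratios of Slpi are all below 1, and Serpinb1a is above 1 for JQ1+ over DMSO and below 1 for flavopiridol over DMSO.

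Scaling moved these values a little. Rescaling each library by the median of ratios shifted the median log2 change of all genes. The shift was 0.08 for JQ1+ against DMSO, -0.13 for flavopiridol against DMSO and 0.21 between the drugs. Of all called genes, 44.8% were lower with flavopiridol as deposited and 59.2% after that rescaling. Between the drugs the lower share went from 77.0% to 56.4%. The 6 genes kept their direction in each comparison after it.

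Nearest in response to Serpina3f were Eif4ebp1, an inhibitor of translation initiation, and Tmem173, the STING adaptor of DNA sensing, at distances of 0.042 and 0.046, followed by Il3ra, an interleukin-3 receptor chain, at 0.097. Those nearest to Serpinb9 were Elovl6, a fatty acid elongase (0.057), Hip1, an endocytic adaptor (0.078), and Irf9, the DNA-binding part of the type I interferon complex (0.093). For Serpinb1a they were Itpr3, a calcium release channel (0.049), Il4i1, an amino acid oxidase induced by interleukin-4 (0.078), and Trp53inp2 (0.11). For Serpinb6b they were Clip2 (0.10), the glutathione-degrading enzyme Chac1 (0.22) and Rasa4 (0.28). For Serpina3g they were the histone demethylase Kdm5b (0.013), Phyh (0.017) and the insulin receptor gene Insr (0.022). The last match says little, since 235 genes lay within 0.25 of Serpina3g, against 24 for Serpina3f, 23 for Serpinb9, 10 for Serpinb1a and 2 for Serpinb6b.

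Other serpins were scarce. Of 62 further serpin genes in the tables, 22 had no reads in any library, 35 had a mean above 0 but under 1 RPKM and 5 passed 1 RPKM. Of those 5 none passed 2-fold with JQ1+, where 7.27% of all genes did, and 1 did with flavopiridol, where 6.43% did. That gene was Serpine2, which inhibits thrombin and urokinase. Serpine2 was at 1.69 RPKM in DMSO, 1.71 in JQ1+ and 10.05 in flavopiridol. It rose 5.96-fold with flavopiridol (interval 4.35 to 8.30). The others were Serpini1, Serpinf1, Serpinb6a and Serpinc1. Serpinb6a, the relative of Serpinb6b, was at 4.48, 5.06 and 6.66 RPKM and so was highest in flavopiridol, where Serpinb6b was lowest.

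**Figure D4:**
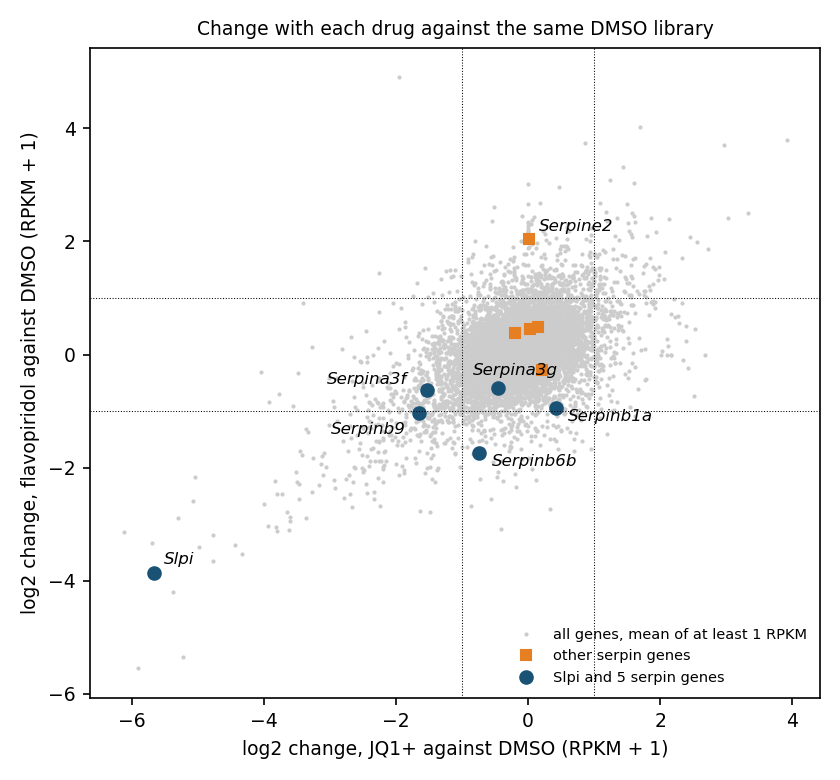
Log2 change with JQ1+ (horizontal) and with flavopiridol (vertical), both against the same DMSO library, for 14790 genes (grey), the 5 other serpins with a mean of at least 1 RPKM (squares) and the 6 protease inhibitor genes (circles), with dotted lines at 2-fold. Slpi lies at -5.66 and -3.86, and Serpine2 is the square at 2.04 on the vertical axis.

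Most genes of other inhibitor families had low levels. Of 17 genes of the WAP-domain list, which is the family of Slpi, only Wfdc17 had a mean of at least 1 RPKM, and it was at 0.981, 2.29 and 0.875 RPKM, within 2-fold by the rule. Of 16 genes picked by symbols that begin like those of cystatins and stefins, 3 passed that minimum. Cst7, an inhibitor of lysosomal cathepsins in leukocytes, fell with JQ1+ from 79.1 to 30.4 RPKM (2.60-fold, interval 2.21 to 3.07) and was at 65.7 with flavopiridol, whereas Cstb and Cst3 stayed within 2-fold. Of 18 further protease inhibitors, 4 passed, and Tfpi, the inhibitor of tissue factor, fell with JQ1+ from 3.85 to 1.14 RPKM. With JQ1+ 5.29% of all genes tested fell. No gene of these 3 lists with a mean of at least 1 RPKM passed 2-fold with flavopiridol. Of all genes tested 6.43% did in either direction, so with so few listed genes tested this says little.

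The granzymes and neutrophil serine proteases known as targets of some of these inhibitors were close to absent. Gzmb, the granzyme B gene, had no reads in any library, which allows up to 3 reads, equal to 0.0502, 0.0585 and 0.0598 CPM in the DMSO, JQ1+ and flavopiridol libraries. Elane, the neutrophil elastase gene, likewise had none, Gzma was at most 0.248 RPKM, Prtn3 at most 0.067 and Ctsg at most 0.047. Of 20 serine protease genes listed, not all of them typical of leukocytes, 4 had a mean of at least 1 RPKM. None of the 4 passed 2-fold, where 7.27% of all genes did with JQ1+ and 6.43% with flavopiridol, so a count of 0 among so few says little. The best expressed was Htra2, a mitochondrial protease, at 122 RPKM in DMSO.

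Cathepsins and legumain were abundant. The list mixes the lysosomal cysteine cathepsins that Serpina3g is known to restrain with Ctsd and Ctse, which are aspartic proteases, and Ctsa, a serine carboxypeptidase. Of its 14 genes 11 had a mean of at least 1 RPKM, with a median log2 change of -0.08 with JQ1+ and -0.15 with flavopiridol. The cysteine cathepsin gene Ctsb was at 50.8, 66.5 and 45.6 RPKM in DMSO, JQ1+ and flavopiridol, and Ctsl at 9.53, 8.76 and 5.31. Only Ctse, no cysteine protease, passed 2-fold, falling with JQ1+ from 7.71 to 2.58 RPKM (2.99-fold, interval 2.20 to 4.13), where 7.27% of all genes passed in either direction.

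Transcription factors of interferon, interleukin and NF-kB signalling are known to switch on inflammatory and antiviral genes. Of 26 listed, 25 had a mean of at least 1 RPKM and none rose with either drug. With JQ1+ 7 fell, where 5.29% of all genes tested did, and with flavopiridol 4 fell, where 2.88% did. Irf7, an amplifier of interferon responses, fell from 120 RPKM in DMSO to 8.87 in JQ1+ and 13.0 in flavopiridol. Stat2 was lower with flavopiridol (25.1 RPKM) than with JQ1+ (39.3), from 80.0 in DMSO. Cebpb, a factor of inflammatory genes, fell with JQ1+ from 26.3 to 8.04 RPKM. Between the drugs, 4 of the 25 were lower in JQ1+, where 6.87% of all genes were lower.

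Slpi, Serpinb1a and Serpinb9 are also known from granulocytes, macrophages and cytotoxic cells, so markers of those cells are given beside them. Of 8 neutrophil markers none had a mean of at least 1 RPKM, 4 (S100a8, S100a9, Elane and Ly6g) had no reads in any library, and the list summed to 0.798 RPKM in DMSO, 0.980 in JQ1+ and 1.73 in flavopiridol. Of 7 NK and cytotoxic markers only Prf1 passed 1 RPKM, Gzmb and Ncr1 had no reads, and the sums were 3.26, 2.78 and 1.92 RPKM. The 7 T cell markers summed to between 3.60 and 4.36 RPKM. Monocyte and macrophage markers, 6 of 7 found by symbol, summed to 8.11, 9.18 and 14.3 RPKM, and moved in different directions. Emr1 rose with flavopiridol, from 0.922 to 9.47 RPKM. Csf1r, the largest part of the sum in DMSO, was at 6.41, 4.03 and 3.94 RPKM. Lyz2 (5, 48 and 1 reads) and Ms4a7 (21, 143 and 29 reads) were highest in JQ1+, with means under 1 RPKM.

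The sum of the dendritic cell list had the same order of libraries as Slpi, but the list did not move as a whole. Over 6 genes it came to 83.4 RPKM in DMSO, 6.38 in JQ1+ and 28.3 in flavopiridol. Nearly all of that sum was Batf3 (55.9, 2.98 and 11.1 RPKM) and Flt3 (26.6, 2.55 and 14.6). Batf3 fell with both drugs, but Flt3 was within 2-fold with flavopiridol (log2 change -0.82). Itgax, Siglech and Clec9a were between 0 and 0.032 RPKM, and Xcr1 was highest, at 2.59, in flavopiridol. Plasma cell markers summed to between 834 and 874 RPKM. Within that list Prdm1 rose with both drugs and Sdc1 with flavopiridol. Xbp1, the largest part of the sum, was at 556, 553 and 423 RPKM in DMSO, JQ1+ and flavopiridol. Irf4 was at 235, 236 and 337 RPKM in the same order, and Tnfrsf17 at 2.16, 0.846 and 2.79. Xbp1, Irf4 and Tnfrsf17 were within 2-fold of DMSO by the rule. The part of any change in cell make-up in the values of Slpi and the serpins was not tested.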

How the data were processed

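Total RNA of 3 libraries was depleted of ribosomal RNA with Ribo-Zero and sequenced, per the labels' protocols. Per the file headers, each deposited table gives a raw read count per gene and an RPKM, which the authors scaled to gene length and library size. The build mm9 comes from the submitters' processing notes, and no source used here names the aligner, counter, annotation or strand setting. Members and gene lists were chosen with earlier results of these data known. Where a symbol had several rows (94 symbols) the highest by mean was kept. Each of the 6 genes had 1 row.

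The log2 change used a pseudocount of 1 RPKM, which understates changes of low genes. Count sums were 2.72 to 2.92 times the total behind the RPKM, computed from GENCODE M21 exon lengths matched by identifier. The reason for that difference is not known. In case reads are not independent fragments, counts were divided by 2.83, which widens the intervals, before exact conditional binomial (ratios) and Poisson (levels) 95% intervals. Floors of 3 reads use undivided counts and would then be too low. With 1 library per group no count model was fitted. Calls and intervals were tested on simulated data with counting error alone. Such data cannot show how they fare with variation between cultures or with changes near 2-fold. All 6 genes are named, with up to 4 genes per list past 2-fold, paralogues, neighbours, and the 3 genes nearest in response to each. Motif windows, shared 50-base words, gene order and level intervals were described after the values were seen, as were listed genes named within 2-fold. Python 3.11.15, pandas 2.3.3, numpy 2.4.6 and scipy 1.17.1 were used. Alternatives were other pseudocounts, filters and scalings, and protein-coding genes alone. Some genes of the lists are not reported here.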

Additional observations from a re-analysis of the deposited data

How the results depend on the processing

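All 72 alternatives of the 18 member changes kept their direction, and 67 kept their side of the 2-fold limit. Another pseudocount cannot reverse a direction, so only the other scalings could have done so. The 5 that crossed it were Serpina3f between the drugs (-1.02) and Serpinb1a with flavopiridol (-1.03) at a pseudocount of 0.1 RPKM, Serpinb1a with flavopiridol (-1.07) after the median of ratios, and Serpinb6b between the drugs (0.95) and Serpinb9 with flavopiridol (-0.91) at a pseudocount of 5 RPKM. For Slpi the change with JQ1+ ranged from -6.11 to -4.56 and with flavopiridol from -3.99 to -3.47. Over the alternatives 3 members were called with JQ1+, and 2 to 4 with flavopiridol and between the drugs.

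The count of all genes past 2-fold, which gives the background, moved by over 1.5 times in several settings. For JQ1+ it was 1075 as reported, 1647 with a pseudocount of 0.1 RPKM, 447 with 5 RPKM, 609 with a minimum mean of 5 RPKM and 710 over protein-coding genes. For flavopiridol it was 951 as reported and 1472, 322, 485 and 528 in the same order, and 608 with library-size-scaled counts. Between the drugs it was 1320 as reported, 439 with a pseudocount of 5 RPKM, 738 with a minimum mean of 5 RPKM, 826 with library-size-scaled counts and 706 over protein-coding genes. Fewer genes were tested under the higher minimum, with library-size-scaled counts and with protein-coding genes. With a minimum mean of 5 RPKM the count of other serpins was 0 in place of 1 with flavopiridol and 0 in place of 1 between the drugs, because Serpine2 was no longer tested. Summing all rows of a symbol changed no ratio, and undivided counts only narrowed intervals. Depth limits Slpi most, at 52 reads in JQ1+. No paired analysis was possible because each group has 1 library.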

Other observations

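Inflammatory caspases, cysteine proteases that some serpins also bind, were well expressed. Casp1 was at 56.8 RPKM in DMSO, 73.8 in JQ1+ and 65.9 in flavopiridol. Casp4 was at 58.2, 40.6 and 43.4 RPKM in the same order. Both stayed within 2-fold of DMSO with either drug.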
